A study of Mus musculus with 4 samples.

Results

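The mitochondrial ribosome translates the few messages of the mitochondrial genome, which encode core subunits of the respiratory chain and ATP synthase. Its proteins are made from nuclear genes, and many descend from proteins of the bacterial ribosome while others were added in mitochondria. In the heart, a tissue that relies on oxidative metabolism, inherited defects of several of these proteins cause cardiomyopathy. The genes described here are those whose symbol starts with Mrpl or Mrps followed by a digit, a rule that uses no measured value. It found 76 genes among the 19505 named genes of the array, each with 1 probe set and a value on all 4 arrays. Of these, 48 symbols start with Mrpl, for the large subunit, and 28 with Mrps, for the small subunit.

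The data are 4 Clariom S arrays of heart RNA from ICR mice, an outbred stock. At postnatal day 1 the pups received 5 µl under the skin of the back, either PBS or a viral vector preparation for Tbx6, a T-box transcription factor of the early mesoderm. Hearts were collected 7 or 30 days later, and 1 array was available for each of PBS at day 7, Tbx6 at day 7, PBS at day 30 and Tbx6 at day 30. The controls had PBS and not a vector without Tbx6, and the sources used here do not give the promoter of the vector, how many hearts made up an RNA sample, or the sex of the pups. Other label fields place the introduction in the heart itself. With no replicate within a group, p-values rest on the additive model described with the day comparison.

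The heart identity of the samples was read from 8 cardiomyocyte markers, all above background on all 4 arrays. Myh6, the main adult ventricular myosin of the mouse, read 19.75 to 19.93, near the highest value of the table (19.93 on the log2 scale), so such genes have little room to differ. The PBS array of day 7 stood apart in genes of the airway lining: 4 of 8 lung epithelial markers were above its background, against 0, 0 and 1 on the Tbx6 array of day 7 and the PBS and Tbx6 arrays of day 30. Scgb1a1, the club cell secretory protein, read 12.89 there and 2.94 to 4.43 elsewhere, while the surfactant genes Sftpb, Sftpc and Sftpd were at background on all 4. The count of members that rose between days, and the medians of their classes and of several other lists, are therefore also given without that array.

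By structure, 50 of the 76 genes encode proteins of the large subunit and 25 proteins of the small subunit. Mrps30 and Mrps18a carry small-subunit names but sit in the large subunit, and Mrps36 encodes a protein of the 2-oxoglutarate dehydrogenase complex and is not counted with either. A value is called at background where it did not exceed the top one of the array's own 23 background probe sets (5.77 to 6.05). Mrpl36 and Mrpl54 were at background on all 4 arrays and were not tested, 6 further genes were at background on at least 1 array, and 68 were above background on all 4. The 74 remaining genes passed the filter on low values, a mean of at least 5.30 (the median over genes), as did 9753 genes in all. RefSeq lists 3 pseudogenes named after Mrps36 and 1 each after Mrpl23, Mrpl27 and Mrpl48, and whether the probes separate them is not given in the sources used here, so the values of these 4 genes are uncertain. Mrpl53 and Mrps6 are not analysed here.

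Promoter sequences were examined first, because factors known to control nuclear genes for mitochondria bind short motifs near the start of transcription. RefSeq windows of 300 bases (build GRCm38.p6, 250 before and 50 after the start) were matched by symbol for 67 of the 76 genes, as 73 windows. The ETS motif CCGGAAG, read by the factor GABP among others, was found on either strand in 34.2% of the 73 windows, against 17.2% of the 10168 windows of all tested genes and 8.86% of all 32851 windows. The YY1 motif AAGATGGC was found in 16.4%, against 4.33% and 2.75%. The NRF1 motif, GCGCA followed by its reverse complement, was found in 3 of the 73 windows, which is 4.11%, against 2.09% and 0.97%. Only exact letters were counted, and this string is longer than those of ETS and YY1, so the shares of different motifs are not comparable. At least 1 of these motifs was present in 36 windows, which is 49.3%, against 22.2% for tested genes and 11.9% for all.

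Other motifs were nearer the comparison windows. CCAAT was found in 39.7% against 37.7% of the windows of tested genes, the E-box CACGTG in 9.59% against 9.78%, and the TATA box TATAAA in 6.85% against 7.60%. The ERR motif TCAAGGTCA was in 0 of the 73 windows and in 0.30% of those of tested genes. Motif searches covered both strands, and matches of different motifs may overlap. A match describes letters in these windows and not binding.

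The windows of 30 bases around the ETS and YY1 matches are printed for genes that were higher at day 30 by the test given with the day comparison, as examples of the matches. Capitals mark the motif or, for CTTCCGG, its reverse complement, and each sequence runs along the strand of the gene. They are RefSeq sequences of build GRCm38.p6.
Mrpl34, ETS, chr8:71464878-71464907, plus strand: aactacagctcCCGGAAGgccccgcggcaa
Mrpl43, ETS, chr19:45006436-45006465, minus strand: caaccccggaaCCGGAAGtcaccggttagt
Mrpl58, ETS, chr11:115403739-115403768, plus strand: aagagtgagcaCCGGAAGcggtcctgggag
Mrps18b, ETS, chr17:35916391-35916420, minus strand: tgtcccgagcatgcgcagtcgctCTTCCGG
Mrps21, ETS, chr3:95871478-95871507, minus strand: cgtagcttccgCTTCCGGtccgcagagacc
Mrps23, ETS, chr11:88204392-88204421, plus strand: tgccgcttccgCTTCCGGtaacagcccgag
Mrpl35, YY1, chr6:71823743-71823772, minus strand: aggcaggctgcAAGATGGCggcttccatct
Mrpl37, YY1, chr4:107066822-107066851, minus strand: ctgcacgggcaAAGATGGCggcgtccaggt
Mrps7, YY1, chr11:115604147-115604176, plus strand: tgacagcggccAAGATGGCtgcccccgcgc

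In each of the 3 YY1 windows the motif lay after the start of transcription, beginning 24, 27 and 19 bases from it for Mrpl35, Mrpl37 and Mrps7. The ETS matches of Mrps18b, Mrps21 and Mrps23 also lay after it, beginning at 44, 19 and 16. Mrpl43 and Mrpl58 each held 2 ETS matches, of which the one nearer the start is printed. Of the 21 genes that rose and had a window, 6 held an ETS match and 3 a YY1 match, where 25 and 12 of all 67 members with a window did. Mrpl55, the gene with the largest difference between days, held none of the 3 motifs in the 250 bases before its start, at chr11:59202236-59202485 on the plus strand, printed here for comparison.
Mrpl55: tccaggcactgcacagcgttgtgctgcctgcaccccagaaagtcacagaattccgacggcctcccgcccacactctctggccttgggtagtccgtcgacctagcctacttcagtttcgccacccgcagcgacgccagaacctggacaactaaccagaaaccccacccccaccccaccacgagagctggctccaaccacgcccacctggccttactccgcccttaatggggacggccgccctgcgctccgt

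**Figure D1:**
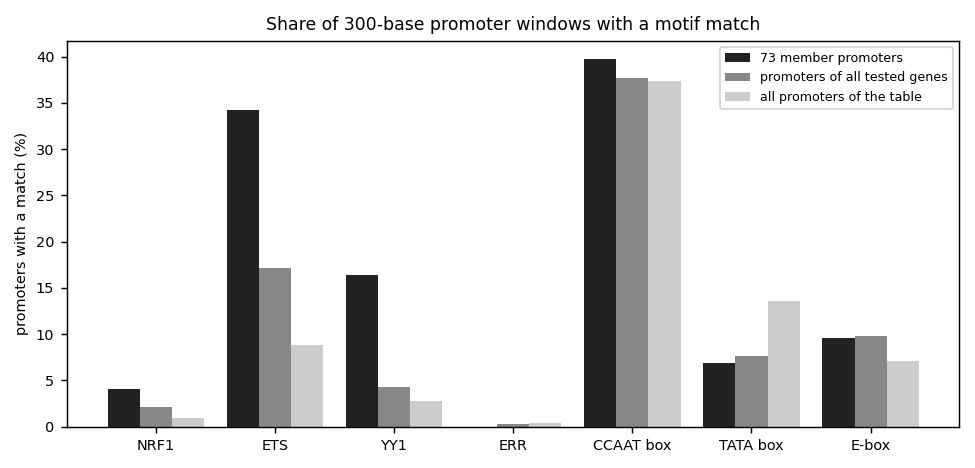
Share of 300-base promoter windows (%, bars) with a match to each of 7 motifs on either strand, for 73 windows of mitochondrial ribosomal protein genes (dark), 10168 windows of all tested genes (grey) and 32851 windows in all (light). The ETS bars stand at 34.2%, 17.2% and 8.86% and the YY1 bars at 16.4%, 4.33% and 2.75%.

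The main comparison asked how these genes differed between hearts of day 30 and day 7. At day 30, 24 of the 74 tested genes rose, by 1.76 to 3.74-fold as read, and 0 fell. Of the 24, 3 had a reading at background, and smaller lower bounds are given for them below. Over all tested genes 14.2% rose and 12.1% fell. Of the genes that rose, 18 encode proteins of the large subunit, such as Mrpl55, Mrpl34 and Mrpl2, and 6 proteins of the small subunit, such as Mrps21 and Mrps35. The median difference of the 74 genes was 0.57 on the log2 scale (quartiles 0.21 and 0.93), against -0.02 over all 9753 tested genes (quartiles -0.45 and 0.46). On the arrays themselves, both day 30 readings were above both day 7 readings for 54 of the 74 genes, against 32.7% of all tested genes, and below them for 1 gene (Mrpl27), against 33.5%.

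The test was limma's additive model with day and injection as terms (two-sided, Benjamini-Hochberg adjusted over the 9753 genes, threshold 0.05). It leaves 1 residual degree of freedom, so each standard error (SE) is drawn almost wholly from other genes. Fitted by day alone without 1 of the arrays, 17 genes rose without PBS at day 7 (11.4% of all tested genes did) 10 without PBS at day 30 (8.01%) and 10 without Tbx6 at day 30 (7.11%), so the number of genes called rests on few arrays. Of the 8 genes above background with the highest differences, Mrpl38 lost the call without PBS at day 30 and Mrpl39 without Tbx6 at day 30, and the other 6 kept it whichever array was left out. Without PBS at day 7 the call was lost by 8 of the 24 genes: Mrpl23, Mrpl24, Mrpl4, Mrpl43, Mrpl44, Mrps14, Mrps7 and Mrps18b. Mrpl46 lost it without Tbx6 at day 7, where its difference was 0.50. Mrpl23, Mrpl43 and Mrpl46 lost it when either array of day 30 was left out, and most of the 24 lost it in each of those fits.

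Mrpl55, the counterpart of bacterial L31, read 8.70 (PBS) and 8.86 (Tbx6) at day 7, and 10.64 and 10.73 at day 30. Mrpl34, a small protein deep in the large ribosomal RNA in bacteria, read 8.08 and 8.16 at day 7 and 9.54 and 9.87 at day 30. Mrpl35 read 9.70 and 9.65 at day 7 and 11.06 and 11.15 at day 30. In these 3 genes the 2 arrays of a day lay within 0.33 of each other and the days did not overlap. Mrpl55 rose by 1.90 (SE 0.24, 3.74-fold, adjusted p = 0.0010), Mrpl34 by 1.58 (SE 0.25, adjusted p = 0.0026) and Mrpl35 by 1.43 (SE 0.24, adjusted p = 0.0040), all by limma.

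Other large-subunit proteins with bacterial counterparts that rose were Mrpl2, Mrpl30, Mrpl23, Mrpl24, Mrpl4 and Mrpl14. Mrpl2, which lies at the peptidyl transferase centre, read 10.25 and 10.22 at day 7 and 11.58 and 11.47 at day 30, a rise of 1.29 (SE 0.24, adjusted p = 0.0063 by limma). Mrpl14 lay at background on each day 7 array, so its rise is given as at least 0.76 after raising those readings to background. In this class 9 of 29 tested genes rose, with a median of 0.57. Of the proteins of the stalk and its base, which recruit translation factors, Mrpl12 differed by 0.57 (SE 0.25), Mrpl10 by 0.14 (SE 0.25) and Mrpl11 by 0.71 (SE 0.24, adjusted p = 0.062 by limma), none past the test.

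Among large-subunit proteins found only in mitochondria, 9 of 19 tested genes rose, with a median of 0.72. Mrpl39, which resembles part of a threonyl-tRNA synthetase, read 8.77 (PBS) and 8.23 (Tbx6) at day 7 and 9.78 and 9.79 at day 30, a rise of 1.29 (SE 0.26, adjusted p = 0.0086 by limma). Mrpl38 rose by 1.27 (SE 0.24) and Mrpl45, related to the import protein Tim44 and placed beside the tunnel exit, by 1.26 (SE 0.25). Mrpl37 and Mrpl50 rose by 1.14 each. Mrpl58, a peptidyl-tRNA hydrolase that became a ribosomal protein, rose by 0.92 (SE 0.24, adjusted p = 0.025 by limma). Mrpl43 and Mrpl46 had readings at background at day 7, and their rises are at least 0.26 and 0.56.

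The small subunit had fewer genes past the test. Of its proteins with bacterial counterparts 3 of 15 rose, with a median of 0.29, and of those found only in mitochondria 3 of 10, with a median of 0.63. Mrps21 read 11.45 and 11.66 at day 7 and 12.87 and 12.92 at day 30, a rise of 1.35 (SE 0.24, adjusted p = 0.0052 by limma). Mrps35 rose by 1.22 (SE 0.25), Mrps23 by 1.08 (SE 0.24) and Mrps7, of the head of the subunit, by 0.81 (SE 0.26). Mrps12, which takes part in decoding, differed by 0.36 (SE 0.27), and Mrps2, Mrps5 and Mrps9 by -0.02, -0.08 and 0.02, none past the test. Mrps15 differed by 2.01-fold and missed the threshold (SE 0.33, adjusted p = 0.053 by limma). Its day 7 readings were 7.27 (PBS) and 6.32 (Tbx6), and without PBS at day 7 it passed, at 1.48 (adjusted p = 0.0099 by limma).

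Over whole subunits, 18 of 48 tested large-subunit genes rose with a median of 0.66, and 6 of 25 small-subunit genes with a median of 0.42. By origin, 12 of 29 mitochondria-specific genes rose with a median of 0.69, and 12 of 44 genes with bacterial counterparts with a median of 0.45. Without PBS at day 7, by day alone, the median was 0.56 for large-subunit genes and 0.47 for small-subunit genes. It was 0.61 for mitochondria-specific genes and 0.48 for those with bacterial counterparts, against -0.01 over all tested genes. Whether these classes differ from each other was not tested.

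**Figure D2:**
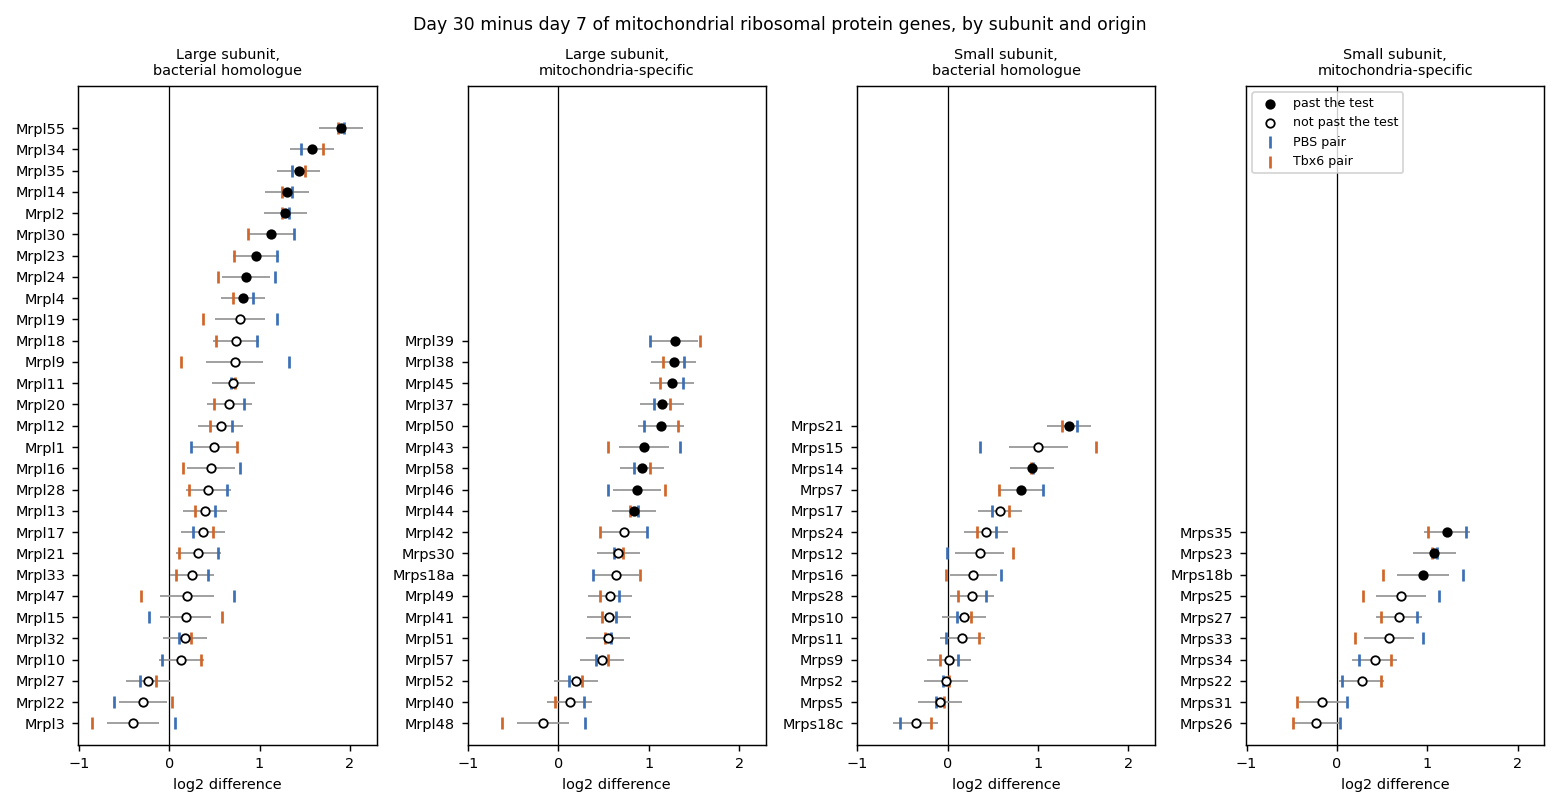
Day 30 minus day 7 (log2 difference, horizontal axis) for 73 tested genes in 4 panels by subunit and origin; circles are the fitted difference with its SE as a grey line, filled where limma's adjusted p was under 0.05, and the blue and orange marks are the PBS pair and the Tbx6 pair of arrays. Filled circles lie at 0.81 or above, and the lowest value is that of Mrpl3 at -0.40.

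The lowest differences among genes above background were -0.40 for Mrpl3, -0.35 for Mrps18c, -0.23 for Mrpl27, -0.23 for Mrps26, -0.17 for Mrpl48 and -0.16 for Mrps31, none past the test. Mrpl3, a core protein of the large subunit, read 10.21 (PBS) and 10.30 (Tbx6) at day 7 and 10.27 and 9.44 at day 30. A single array, Tbx6 at day 30, was low, and the PBS pair differed by 0.06. Mrpl22 at -0.29 and Mrps16 at 0.29 each had 1 reading at background, and Mrpl41 at 0.56 had 3.

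Of the members linked to inherited cardiomyopathy, Mrps14 rose by 0.93 (SE 0.24, adjusted p = 0.023 by limma), from 10.33 and 10.40 at day 7 to 11.28 and 11.32 at day 30. Mrpl44, which has the fold of an RNase III, rose by 0.84 (SE 0.24, adjusted p = 0.035 by limma), from 8.05 and 8.27 to 8.93 and 9.06. Both lost the call without PBS at day 7, at 0.90 (adjusted p = 0.052) and 0.73 (adjusted p = 0.10) by limma, and without either array of day 30. Mrps22 read 7.52 and 7.27 at day 7 and 7.58 and 7.77 at day 30, a difference of 0.27 (SE 0.25) not past the test. Mrpl3 is given above.

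The 3 paralogues of bacterial S18 gave 3 different values. Mrps18b rose by 0.95 (SE 0.29, adjusted p = 0.040 by limma), from 7.39 and 7.90 to 8.79 and 8.41, and lost the call without PBS at day 7 (0.70, adjusted p = 0.13 by limma) or without either array of day 30, and also under quantile normalisation (adjusted p = 0.057 by limma) and without the filter on low values (adjusted p = 0.072 by limma). Mrps18a read 9.37 and 9.44 at day 7 and 9.75 and 10.33 at day 30, a difference of 0.64 (SE 0.26). Mrps18c, which holds the place of the bacterial protein, read 10.24 and 9.68 at day 7 and 9.72 and 9.50 at day 30, a difference of -0.35 (SE 0.25). Neither of the last 2 passed the test, and the differences between paralogues were not tested.

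**Figure D3:**
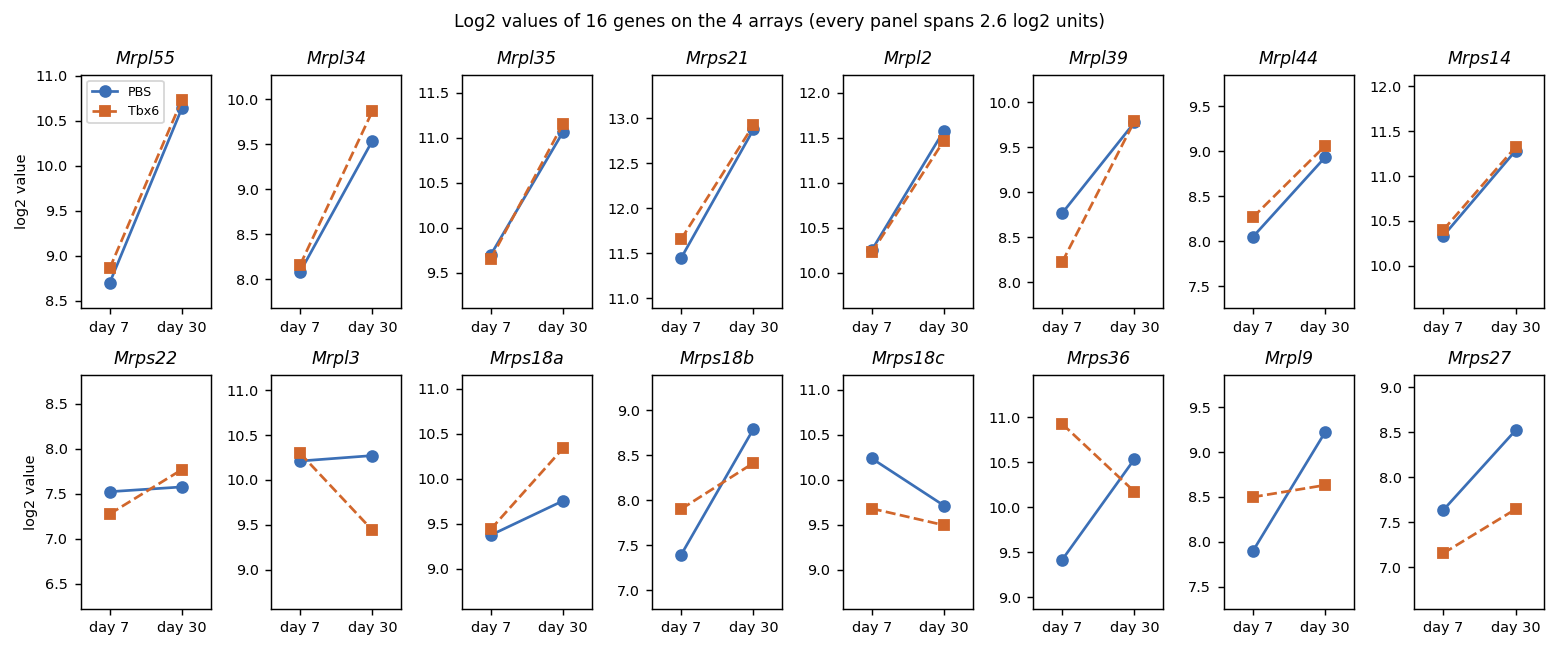
Log2 values (vertical axis) of 16 genes at day 7 and day 30, with PBS arrays as blue circles and Tbx6 arrays as orange squares, joined within an injection; every panel spans the same range, at a height of its own. In the upper row both day 30 readings lie above both day 7 readings, and in the lower row Mrps36 differs by 1.12 between the PBS arrays and by -0.75 between the Tbx6 arrays.

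The difference was also read within each injection, without a test. In the PBS pair 41 of 74 genes were at least 1.5-fold higher at day 30 and 1 (Mrpl22) lower, where 21.9% and 21.5% of all tested genes were. With readings raised to background these counts were 38 and 0, since Mrpl22 lay at background on the PBS array of day 30. In the Tbx6 pair 29 were higher and 3 (Mrpl3, Mrpl48 and Mrps36) lower, against 22.9% and 21.2%, and 28 and 3 with readings raised to background. Both pairs gave at least 1.5-fold higher values for 21 genes, 14.7% over all tested genes, and lower values for 0, 12.9% over all. The median of the members was 0.66 in the PBS pair and 0.50 in the Tbx6 pair. Of the 24 genes that rose, 19 passed 1.5-fold in both pairs, and all 24 had days that did not overlap.

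The rest of the mitochondrial translation system was read from fixed lists. All 3 tested proteins of the mitochondrial ribosome with other symbols rose: Dap3, a GTP-binding protein of the small subunit, by 1.49 (SE 0.27), Ptcd3, at the entry of the message channel, by 1.35 (SE 0.24), and Chchd1 by 1.18 (SE 0.24). Among translation factors 5 of 14 tested genes rose and 0 fell, with a median of 0.70. The elongation factors Gfm1 and Gfm2 rose by 0.90 and 0.96, and Taco1, an activator of cytochrome oxidase translation, by 0.95, while Tufm differed by 0.78 (adjusted p = 0.070 by limma). Of the mitochondrial aminoacyl-tRNA synthetases and the amidotransferase subunits listed with them, 7 of 15 rose and 0 fell, with a median of 0.80. Of these 15 genes, 3 had a reading at background on at least 1 array, and their values were not raised to it. The synthetases that rose included Cars2 at 1.29 and Tars2 at 1.17.

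In the list for assembly of the ribosome and modification of its RNA, 10 of 21 tested genes rose and 0 fell, with a median of 0.87. Here 5 of the 21 had a reading at background on at least 1 array, again not raised to it. Fastkd2, an RNA-binding protein of the assembly granules, rose by 1.31 (SE 0.25) and Eral1, a chaperone of the small-subunit RNA, by 1.23 (SE 0.32). The list for transcription of mitochondrial DNA and processing of its RNA was mixed: 5 of 15 rose, 0 fell, and the median was 0.13. Tfb2m, a factor that opens the mitochondrial promoters, rose by 1.92 (SE 0.28, adjusted p = 0.0020 by limma). Tfam, which packages mitochondrial DNA, read 7.97 and 7.34 at day 7 and 7.46 and 6.56 at day 30, a difference of -0.64 not past the test. In protein import 4 of 22 rose, Tomm5 by 1.44 and Timm23 by 1.19 among them, and 1 fell, Tomm6 by 1.06.

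Regulators of nuclear genes for mitochondria did not share a direction, with 2 of 9 tested genes rising, 1 falling and a median of -0.34. Ppara, a receptor for fatty acids, rose by 1.62 (SE 0.24) and Esrrg by 0.82 (SE 0.25), and Ppargc1b, a coactivator, fell by 1.30 (SE 0.28). For the NRF1, ETS and YY1 motifs, the factors Nrf1, Gabpa and Yy1 gave -0.90 (adjusted p = 0.054), -0.76 (adjusted p = 0.055) and 0.21 by limma. None of these passed the test.

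Among the most similar groups, respiratory chain and ATP synthase subunits, chosen by symbol (Nduf, Sdh, Uqcr, Cyc1 and Atp5), had 25 of 65 tested genes rising and 0 falling, with a median of 0.60. Sdha, of complex II, rose by 2.39 (SE 0.27). Proteins of the cytosolic ribosome had 1 of 58 rising and 17 falling, with a median of -0.56. Rpl3 fell by 1.51 (SE 0.25), from 14.34 and 14.21 to 13.00 and 12.52. The gene that rose was its muscle paralogue Rpl3l, by 4.39 (SE 0.27). Without PBS at day 7, by day alone, the median was 0.52 for respiratory subunits and -0.60 for cytosolic ribosomal proteins. Over all tested genes it was -0.01. In the same fit it was 0.56 for translation factors, 0.70 for the synthetase list and 0.81 for the assembly list. The mitochondrial transcription list had a median of 0.14 in it, ribosomal proteins with other symbols 1.33, import genes 0.43 and regulators -0.22. Counts of the fit over all 4 arrays stand beside the 14.2% and 12.1% of all tested genes. No difference between groups was tested.

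**Figure D4:**
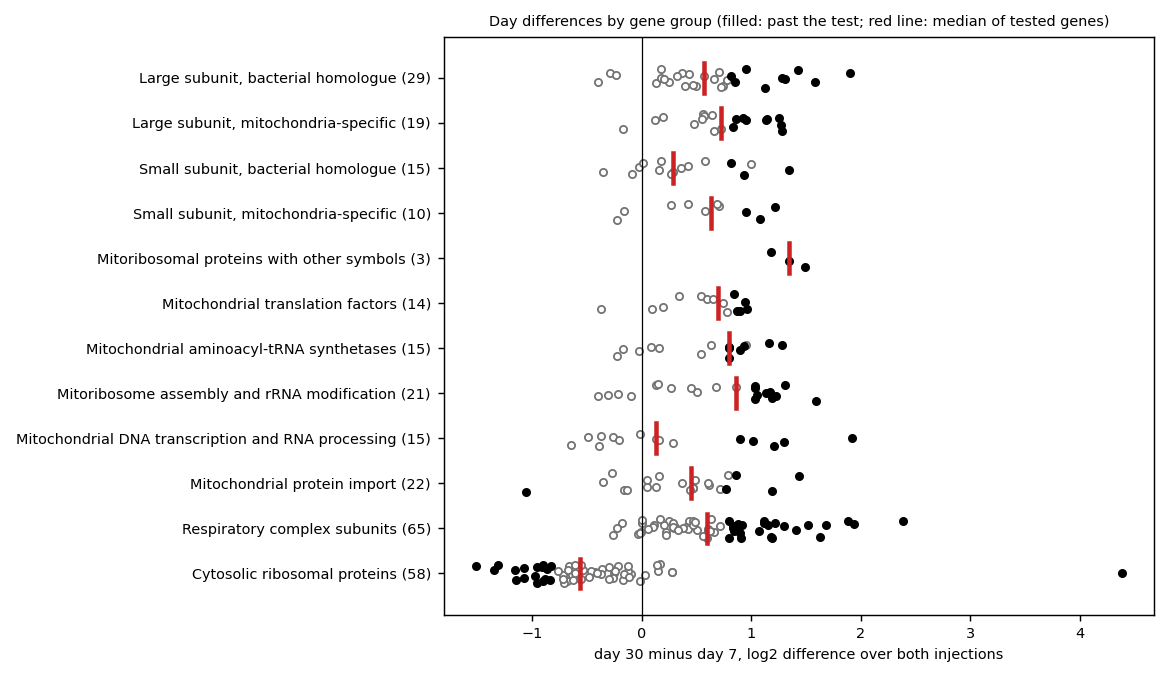
Day 30 minus day 7 (log2 difference over both injections, horizontal axis) of tested genes in 12 groups, with the number tested in brackets; each point is a gene, filled where limma's adjusted p was under 0.05, and the red line is the median of the group. Medians of the 4 classes of mitochondrial ribosomal proteins lie at 0.29 to 0.72, and that of cytosolic ribosomal proteins at -0.56.

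The cell content read from markers also differed between days. Of 7 tested fibroblast markers 6 fell, with Postn, a matrix protein, at -4.57, while 6 of 7 macrophage markers rose, C1qb by 2.97. Among the 7 macrophage markers, 3 had a reading at background at day 7, and the values were not raised to it. All 5 tested proliferation markers fell, with readings of Ccna2, Plk1 and Ube2c at background at day 30. Of the 5, 4 had a reading at background on at least 1 array. Endothelial markers had 1 rising and 2 falling of 7, and 0 of 8 cardiomyocyte markers passed the test, with a median of 0.16. Their summed linear levels on the 2 arrays of a day were 613071 and 613518 at day 7 and 372745 and 374154 at day 30 for fibroblast markers, 1687 and 1960 against 5384 and 6510 for macrophage markers, and 3148 and 3370 against 213 and 265 for proliferation markers. The part of these differences in the values above was not tested, and in bulk RNA fewer cells of a type cannot be told apart from less RNA per cell.

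Neighbouring genes gave a further description. Of the 67 members with a promoter window, 26 (38.8%) had the start of a gene on the opposite strand within 1000 bases upstream, facing away, against 19.6% of 7905 tested genes with a window. The array held 18 tested genes as such neighbours, of which 5 rose and 1 fell between days, with a median of 0.11. Over all tested genes 14.2% rose and 12.1% fell. The 18 include the members Mrpl46, which is 1 of the 5, and Mrps11. Mrpl46 and Mrps11 are such a pair of members, with starts 42 bases apart, and Mrps11 differed by 0.16 between days, where Mrpl46 rose by at least 0.56. Mrps12 and Sars2, the mitochondrial seryl-tRNA synthetase, start 147 bases apart and differed by 0.36 and 0.09. Mrpl47 and Ndufb5, of complex I, start 308 bases apart and differed by 0.20 and 1.30. Of 6 tested neighbours of members that rose, 1 rose, Zfp189 beside Mrpl50, which was at background on the PBS array of day 7 and whose rise is at least 0.75. Members with an ETS match had a median day difference of 0.37 over 25 genes, and those without one 0.66 over 41. With and without a YY1 match the medians were 0.64 over 11 genes and 0.57 over 55.

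The second comparison set Tbx6 against PBS. It uses the same 4 arrays as the day comparison. Over both days 0 of 74 members passed the adjusted threshold for injection by limma, as did 0% of all tested genes, and 2 had an unadjusted p under 0.05, against 4.32% of all. The 2 were Mrps27 and Mrpl20, both lower after Tbx6 on both days. Mrps27, a protein with pentatricopeptide repeats that binds RNA, read 7.64 (PBS) and 7.16 (Tbx6) at day 7, and 8.52 and 7.65 at day 30, a difference of -0.68 over both days (SE 0.25, adjusted p = 1.0 by limma). Mrpl20 read 10.76 and 10.35 at day 7 and 11.58 and 10.85 at day 30, a difference of -0.57 (SE 0.25, adjusted p = 1.0 by limma). Among genes above background, the other lowest differences over both days were Mrpl52 at -0.50, Mrps24 at -0.49 and Mrpl38 at -0.41, and the highest Mrps36 at 0.57, Mrps31 at 0.45, Mrpl11 at 0.41, Mrpl23 at 0.36 and Mrps11 at 0.35.

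At day 7, with 1 array on each side and so no test, 5 members were at least 1.5-fold higher after Tbx6 and 3 lower, where 7.23% and 8.41% of all tested genes were. The median was 0.08, against -0.02 over all. Mrps36 read 9.42 after PBS and 10.93 after Tbx6, a difference of 1.51, the highest of the 74. The other higher genes were Mrps31 (0.73), Mrpl48 (0.72), Mrpl9 (0.60) and Mrpl23 (0.60). Values of Mrps36, Mrpl48 and Mrpl23 are uncertain because of the pseudogenes given above, and Mrps36 is not a ribosomal subunit. The lower ones were Mrps15 (-0.95), Mrpl1 (-0.63) and Mrpl46, whose Tbx6 reading was at background and which did not pass 1.5-fold once raised to it. Among genes above background the next were Mrpl52 (-0.57), Mrps18c (-0.56) and Mrpl39 (-0.54).

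At day 30, also without a test, 1 member was at least 1.5-fold higher after Tbx6 and 5 lower, where 7.13% and 6.06% of all tested genes were, and the median was -0.05 against 0.01. Mrpl15 was the higher one at 0.70, with readings of 9.70 and 10.40, followed among genes above background by Mrps18a (0.58), Mrps11 (0.53), Mrps12 (0.49) and Mrpl11 (0.43). The lower ones were Mrps27 (-0.88), Mrpl3 (-0.83), Mrpl20 (-0.74), Mrps24 (-0.59) and Mrpl9 (-0.59). Only Mrpl9 passed 1.5-fold on both days, in opposite directions, as did 1.56% of all tested genes.

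Of 6 tested fat markers, 5 read lower after Tbx6 than after PBS at day 7, and all 6 read higher at day 30. Among these 6, 3 had a reading at background on at least 1 array. Ucp1, the uncoupling protein of brown fat, read 11.92 (PBS) and 7.60 (Tbx6) at day 7, and 5.69 and 8.34 at day 30. The 5.69 lay at background, whose limit was 6.05 on that array. Summed linear levels of the markers on the array were 145384 (PBS) and 137995 (Tbx6) at day 7, and 90764 and 108328 at day 30. Retn was the 1 fat marker that rose between days. Over the 6 tested markers of the list the median difference was -0.65 at day 7 and 1.32 at day 30, and 2 of 9 markers (Elovl3 and Plin1) were at background on all arrays. The lung markers of the PBS array of day 7 are given above. Their part in the injection differences was not tested.

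**Figure D5:**
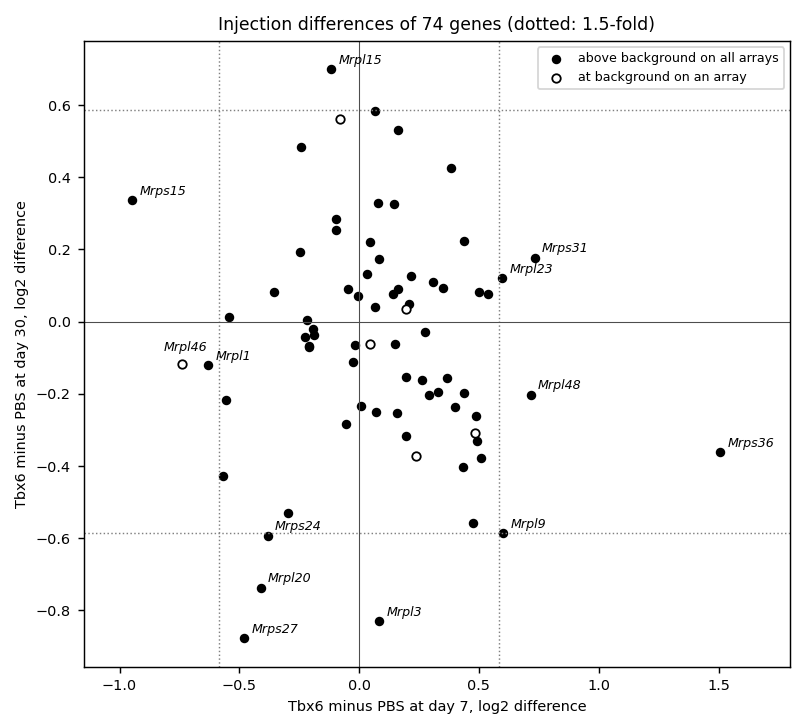
Tbx6 minus PBS at day 7 (horizontal axis) against day 30 (vertical axis), in log2 units, for the 74 tested genes chosen by symbol, Mrps36 among them. Filled points were above background on all 4 arrays, open points were not, and dotted lines mark 1.5-fold. Most points lie inside the dotted lines, Mrps36 stands at 1.51 and -0.36, and Mrps27 and Mrpl20 lie low on both axes.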

How the data were processed

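Per the labels, RNA was labelled as biotinylated single-stranded cDNA and hybridised to mouse Clariom S arrays. Per the submitters' processing notes and the series' design text, the authors deposited values made by SST-RMA in Affymetrix Expression Console 1.4, and they are taken here as log2 values from their range, since the log base is not written. Arrays give no depth of reads; the precision is limited by how many arrays there are. The genome build of the array is not given in the sources used here.

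Of 28846 probe sets, 19572 carried 1 gene symbol in the platform annotation, and all had the same symbol in RefSeq (GRCm38.p6). Where a gene had several probe sets (55 genes) the highest mean was kept. limma 3.58.1 in R 4.3.3 was fitted across all 9753 genes whose mean was no lower than the median over genes. It was also tested on simulated data with independent noise, which cannot show how far calls from unreplicated arrays hold. Differences between single arrays were counted at 1.5-fold. Figures and tables used Python 3.11.15, pandas 2.3.3 and matplotlib 3.10.9. Named genes were those with the 8 highest and 8 lowest day differences, the 5 highest and 5 lowest injection differences, the fixed classes, members at background and up to 3 genes of each further list; other genes, divergent neighbours among them, were named after their values were seen. The members and lists were chosen with earlier results of these data known.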

Additional observations from a re-analysis of the deposited data

Results flagged for a closer look

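Mrpl9, which encodes the counterpart of bacterial L9, differed between injections in opposite directions on the 2 days, past 1.5-fold on each. Its readings were 7.90 (PBS) and 8.50 (Tbx6) on the day 7 arrays, and 9.22 (PBS) and 8.63 (Tbx6) on those of day 30. The injection difference at day 30 was lower than that at day 7 by a log2 value of -1.19. With 1 array in each group this difference between days was not tested.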

How the results depend on the processing

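The count of 24 members that rose between days stayed within 1.5 times that number under quantile normalisation (21, with 12.3% of all genes), without the filter on low values (17, with 6.12%), among genes above background on all arrays (24, with 16.4%), with a trended robust variance (30, with 15.5%), with day alone (23, with 14.0%) and with 1.5-fold required as well (24), and 0 fell in each. All of the 21, 17 and 23 were among the 24, as were 21 of the 24 above background. The count at 1.5-fold used the readings as they stood. Raised to background, Mrpl43 and Mrpl46 differed by 0.26 and 0.56, short of 1.5-fold (0.58). Leaving out 1 array in turn gave 10 to 23 members that rose, with 7.11% to 11.4% of all genes, and a median difference of 0.51 to 0.64. The median was 0.56 with readings raised to background, an alternative chosen after seeing the data. So were the values within each pair, the pair counts raised to background and the list medians without PBS at day 7. For injection, 0 members passed the adjusted threshold under quantile normalisation, without the filter, above background or with the trended variance. With 2-fold in place of 1.5-fold, the members higher and lower after Tbx6 were 1 and 0 at day 7 and 0 and 0 at day 30, by the stricter rule's construction. Quantile normalisation gave 2 members higher at day 30 in place of 1. No paired analysis was possible because each group is 1 array with no replicate number, and injection is a term of the model. With 1 array in each group, differences between RNA samples cannot be told apart from effects of injection.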
